A study of Homo sapiens with 10 samples.

Results

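The genes described here were 47 protein-coding genes of the lysosome, chosen by name as its soluble enzymes, its membrane proteins, subunits of its proton pump and the transcription factor TFEB. All 47 were found, each as 1 of the 60603 rows of the expression tables. They were measured by mRNA-seq in NB4, a human line derived from an acute promyelocytic leukemia. In the GSE1 knockdown experiment, 2 libraries each were made from cells 48 h after transduction with pLKO.1 puro, a lentiviral vector that was empty (EV) or carried 1 of the short hairpins shA1 and shB2 against GSE1, so that all 6 libraries of this experiment came from transduced cells. In the LSD1 inhibitor experiment, 2 libraries each came from cells treated for 24 h with DMSO or with 2 µM of the LSD1 inhibitor MC2580. GSE1 is a protein that binds the histone demethylase LSD1, and the hairpin cells were infected populations of a single cell line.

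The lysosome is the acidic compartment in which a cell breaks down proteins, glycans, lipids and sulfated sugars delivered by endocytosis, phagocytosis and autophagy. Its hydrolases are made in the endoplasmic reticulum and mostly carried there by mannose 6-phosphate receptors, the V-ATPase pumps protons into it, and heavily glycosylated proteins such as LAMP1 line its membrane. TFEB activates many of these genes by binding the CLEAR motif, an E-box with flanking bases, in their promoters. TFE3, MITF and TFEC are relatives of TFEB. In promyelocytes, azurophil granules share enzymes and sorting routes with lysosomes, and macrophages and neutrophils rely on both to digest what they take up.

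The values are base means, the authors' mean of normalised counts across all libraries of each experiment. Each gene has a single base mean per experiment, which mixes control with hairpin libraries or DMSO with MC2580 libraries. It therefore carries no replicate error, gives no effect of the hairpins or of the inhibitor, and could not be used to check the knockdown of GSE1 itself (base means of 2963 in the knockdown experiment and 4441 in the inhibitor experiment). Depth per library is unknown, and no test was possible. What the values do show is how strongly each lysosomal gene was expressed in each experiment, and how the experiments differed. The experiment itself, transduction, the hairpins, culture time and treatment cannot be told apart in that difference.

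The line carried the markers of promyelocytes. MPO, the peroxidase of azurophil granules, had base means of 506765 and 824818, and of the 7 promyelocyte markers only ELANE was near 0, at 1.1 and 3.87. The summed base means of the 7 markers were 519135 and 845154. Among 15 markers of 5 other cell types, CD3D (866 and 869), CD79A (121 and 116), EPCAM (432 and 403) and KRT18 (906 and 668) had base means above 100 in both experiments, PDGFRB had 52.6 and 18.3, and the other 10 stayed below 50 in both, with HBA1 listed at 0.

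Lysosomal genes spanned the range from almost unmeasured to among the highest in the cell. To compare genes, each base mean was divided by the length of the gene's exons, giving a level per kilobase. PSAP, the precursor of the saposins that help enzymes reach sphingolipids, stood highest, at 7250 per kilobase in the knockdown experiment and 5054 in the inhibitor experiment. By the length of all exons, it held 23.3% and 19% of the summed level per kilobase of the 47 genes. CD63, a tetraspanin of lysosomes and azurophil granules, followed at 3350 and 3042, and MAN2B1, the lysosomal alpha-mannosidase, at 2444 and 2532. Over the canonical transcripts PSAP remained the highest in the knockdown experiment, but CD63, at 7202, stood above PSAP, at 5729, in the inhibitor experiment. The share also fell over those transcripts, where the 7 genes of lipid breakdown and transport, PSAP among them, together held 18.0% and 15.3%. By the length of all exons these 7 genes held 31.7% and 26.9%. By the length of all exons, the same 10 genes were the highest in both experiments, and the same 5 genes were the lowest. The tested genes were the 10916 protein-coding genes whose base mean reached 50 in each experiment, and those without a matched exon length were left out of the ranking by level. Of the 47 genes, 26 in the knockdown experiment and 23 in the inhibitor experiment lay above the median level per kilobase of the ranked genes, and 5 lay in the highest 10% in each. Together the 47 genes held 0.408% of the summed base mean of all genes in the knockdown experiment and 0.347% in the inhibitor experiment.

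Among the proteases, CTSD, the main aspartic protease of the lysosome, was the highest at 1211 and 1350 per kilobase, followed by TPP1, which removes tripeptides, at 1068 and 928. CTSC, the dipeptidyl peptidase that activates the serine proteases of granules, had the largest base mean of the group, 10902 and 9097. Its level per kilobase was 439 and 366 because its annotated exons add up to 24849 bases, and over the canonical transcripts alone the order turned, with CTSC at 5830 and 4865 and CTSD at 3358 and 3741. TPP1, at 1989 and 1727, then also lay below CTSA, CTSZ and CTSH. CTSD shares 50.7% of its exon length with 3 other genes. Among them are ENSG00000250644 on the same strand (base means of 68.5 and 58.5) and PRADX on the opposite strand (12.4 and 22.7). LGMN, the asparaginyl endopeptidase, was at the bottom with a base mean of 1.35 in the knockdown experiment and a listing of 0 in the inhibitor experiment.

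The glycosidases ran from MAN2B1 down to IDUA, the alpha-iduronidase that degrades dermatan and heparan sulfate, at 55.5 and 85.5 per kilobase. Over the canonical transcripts NEU1, at 157, was marginally below IDUA, at 159.6, in the inhibitor experiment. GUSB, the beta-glucuronidase often used as a reference gene, was the other abundant member at 1424 and 1655. MAN2B1 shares 21.2% of its exon length with 2 other genes on the same strand. Their base means were 26.8 and 248 for ENSG00000269242 and 0 in both experiments for ENSG00000269590. Most of the group was moderately expressed, with median levels of 312 and 187 per kilobase.

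The sulfatases, which strip sulfate groups from glycans and sulfatides, were sparser. ARSB was the highest of the 4 at 296 per kilobase in the knockdown experiment and 167 in the inhibitor experiment. SGSH, the heparan N-sulfatase, was the lowest at 6.46 and 3.85. Of the phosphatases, ACP2 reached 361 and 271, whereas ACP5, the tartrate-resistant phosphatase of osteoclasts and macrophages, had base means of only 1.32 and 4.65.

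Among the genes of lipid breakdown and transport, PPT1, which removes palmitate from proteins, came after PSAP at 1720 and 1252 per kilobase. ASAH1, the acid ceramidase, was the lowest of the group in the knockdown experiment at 80.2, and SMPD1, the acid sphingomyelinase, was the lowest in the inhibitor experiment at 61.1. The annotated exons of ASAH1 add up to 15378 bases, and over the canonical transcripts ASAH1 stood at 444 in the knockdown experiment, above GM2A at 243 and SMPD1 at 153, so that SMPD1 was the lowest in both.

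CD63 and LAMP1 led the membrane proteins, LAMP1 with 1924 and 1874 per kilobase. SCARB2, the receptor that carries glucocerebrosidase to the lysosome, was the lowest at 48.7 and 34.0. The 4 proton pump genes ran from ATP6AP1, an accessory subunit, at 881 and 826 to ATP6V1A, the catalytic subunit, at 187 and 142, although over the canonical transcripts ATP6V0D1, at 3647 and 3158, stood above ATP6AP1, at 2437 and 2285. TFEB itself was low, at 33.9 and 24.2 per kilobase, on base means of 228 and 163.

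Next, the experiments were compared gene by gene. The difference is the log2 ratio of the base mean in the inhibitor experiment to that in the knockdown experiment, less the median of that ratio over the 10916 genes, which was −0.07, so that a negative value means lower in the inhibitor experiment. Of the 47 lysosomal genes, 44 reached the base mean of 50 in both experiments, and SGSH, ACP5 and LGMN did not. The median difference of the 44 was −0.14, a factor of 0.910, against 0 for all genes by construction, and 30 of the 44 (68.2%) lay below 0 against 50% of all genes. ARSA, GAA, LAMP1 and NEU1, at 0.03 to 0.06, would lie below 0 without the centring. Exactly 22 lay inside the middle 50% of all genes, from −0.29 to 0.28. The spread among the 44 (SD 0.42) was close to that among all genes (SD 0.47).

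Of the 44 genes, 3 were more than 2-fold lower in the inhibitor experiment and 0 were more than 2-fold higher. Among all genes tested, 3.69% were past 2-fold in either direction and 2.67% were past it in the lower direction. The count of 3 is 6.82% of the 44 genes. At 1.5-fold, 5 genes were lower, 11.4% of the 44 against 10.1% of all genes, and 1 was higher against 8.37% of all genes.

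**Figure D1:**
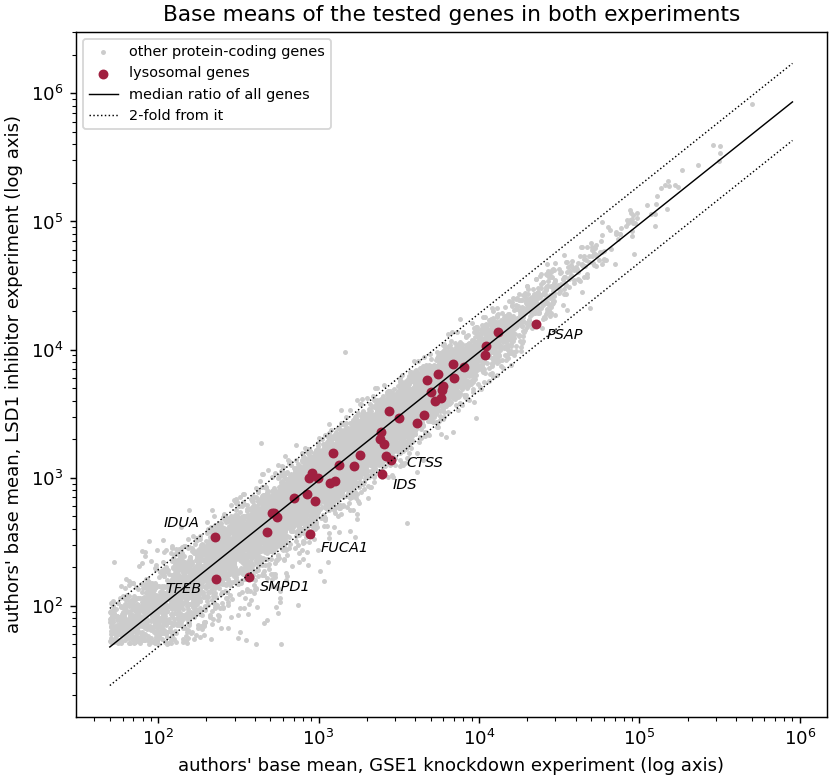
The authors' base mean of each tested protein-coding gene in the GSE1 knockdown experiment (x, log axis) and in the LSD1 inhibitor experiment (y, log axis), with the 44 lysosomal genes in red, the median ratio of all genes as a solid line and 2-fold departures from it as dotted lines. FUCA1, IDS and SMPD1 lie below the lower dotted line, CTSS just above it, and the other lysosomal genes follow the cloud of all genes.

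FUCA1, the fucosidase that removes fucose from glycoproteins and glycolipids, showed the largest difference. The gene spans chr1:23845077-23868290 on the minus strand (GENCODE release 44, GRCh38). Its base mean was 881 in the knockdown experiment and 362 in the inhibitor experiment, a difference of −1.22 or 2.32-fold. IDS, the iduronate 2-sulfatase at chrX:149476988-149521096 on the minus strand, had base means of 2472 and 1065, a difference of −1.15 or 2.21-fold. SMPD1, at chr11:6390440-6394998 on the plus strand, had base means of 368 and 168, a difference of −1.07 or 2.10-fold. These are enzymes of separate pathways, since FUCA1 acts on fucosylated glycans, IDS on heparan and dermatan sulfate, and SMPD1 on sphingomyelin.

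IDS shares 75% of its exon length with an overlapping readthrough gene on the same strand, ENSG00000241489, whose base means were 193 and 70.2, so the way the counting split reads between them bears on its value. FUCA1 and SMPD1 shared no exon bases with another gene. The pseudogene copies FUCA1P1 and IDSP1 were listed at 0.15 and 0.55 in the knockdown experiment and at 0 in the inhibitor experiment.

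CTSS, a cysteine protease of antigen-presenting cells, stood just inside the 2-fold limit. Its base means were 2848 and 1378, a difference of −0.98. The next genes were ARSB at −0.76, with base means of 2630 and 1484, and CTSZ, a carboxypeptidase, at −0.55, with base means of 4105 and 2674. CTSZ shares 31.7% of its exon length with NELFCD on the opposite strand, and the library kit does not mark strand.

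At the other end, IDUA had base means of 225 and 347, a difference of 0.69 that placed it just below the 95th percentile of all genes at 0.70. It shares 13.2% of its exon length with SLC26A1, which runs on the opposite strand. ASAH1 followed at 0.41 (1233 and 1557), CTSH, an aminopeptidase, at 0.35 (4758 and 5792), NAGLU, which acts on heparan sulfate, at 0.33 (915 and 1093), and CLN3, the membrane protein of juvenile Batten disease, at 0.32 (2765 and 3298). CLN3 shares 31.1% of its exon length with other genes, made up of 25.3% with the readthrough gene ENSG00000261832 on the same strand and 5.84% with APOBR on the opposite strand, whose base means were 3546 and 2185. NAGLU shares 12.9% with a long noncoding RNA on the same strand and ASAH1 4.00% with its antisense RNA, both with base means below 10, and CTSH shares none.

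By role, all 4 proton pump genes lay below 0, from ATP6V1B2 at −0.50 to ATP6AP1 at −0.02, with a median of −0.23. Of the 13 other proton pump subunits described below, only 7 lay below 0. Of the 9 proteases, 7 lay below 0, and their median was −0.19. The 11 glycosidases divided into 5 below and 6 above 0 with a median of 0.05, although they held both FUCA1 and IDUA. Among the 3 sulfatases tested, IDS and ARSB were low and ARSA, the arylsulfatase that degrades sulfatide, stood at 0.06.

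The 7 lipid genes had a median of −0.08, with PSAP at −0.45 on base means of 22585 and 15743. Of the 8 membrane proteins, 5 lay below 0, from SCARB2 at −0.45 to CLN3, and their median was −0.09. LAMP1 and LAMP2, closely related membrane glycoproteins, stood at 0.03 and −0.35. TFEB had a difference of −0.42, and ACP2 one of −0.35.

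The promoters of these genes were then searched for the core of the CLEAR motif, TCACGTGA, which reads the same on both strands. RefSeq promoters of 250 bases before to 50 bases after the transcription start on GRCh38.p14 were matched for 34 of the 47 genes; ARSA, ASAH1, ATP6V1A, ATP6V1B2, CTSB, CTSS, HEXA, LAMP2, LGMN, MANBA, NAGLU, PSAP and SGSH were not searched. The motif occurred in 6 of the 34 genes (17.6%), in 0.980% of all 35116 promoters and in 2.42% of the 8705 tested genes with a promoter. Of these, GAA, LAMP1 and MCOLN1 held it at 2 positions each. The motif is known from promoters of lysosomal genes, and the 47 genes were chosen as such. Their higher share is therefore no independent result and was not tested. The windows below show each occurrence in capitals with 11 bases to either side, written 5′ to 3′ on the strand of the gene. Every occurrence lies near a start because only those bases were searched.
LAMP1, first occurrence: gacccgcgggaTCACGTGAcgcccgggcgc
LAMP1, second occurrence: cgcggcgcagcTCACGTGAcaagcgctgcc
GAA, first occurrence: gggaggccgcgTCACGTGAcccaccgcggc
GAA, second occurrence: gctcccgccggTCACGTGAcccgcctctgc
MCOLN1, first occurrence: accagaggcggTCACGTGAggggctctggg
MCOLN1, second occurrence: gggctaccgggTCACGTGAccgaggcacag
CTSA: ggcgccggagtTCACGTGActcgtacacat
ATP6V0D1: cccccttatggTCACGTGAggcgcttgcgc
CLN3: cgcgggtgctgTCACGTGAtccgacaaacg

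The LAMP1 windows are at chr13:113297199-113297228 and chr13:113297226-113297255 on the plus strand, with the motif beginning 29 and 2 bases before the start. Those of GAA, the acid alpha-glucosidase, are at chr17:80101493-80101522 and chr17:80101538-80101567 on the plus strand, 77 and 32 bases before the start. Those of MCOLN1, the calcium channel mucolipin 1, are at chr19:7522571-7522600 and chr19:7522598-7522627 on the plus strand, 42 and 15 bases before it. The CTSA window, chr20:45891298-45891327 on the plus strand, begins its motif 26 bases before the RefSeq start. The ATP6V0D1 window is at chr16:67481199-67481228 on the minus strand, 60 bases before the start, and the CLN3 window at chr16:28492058-28492087 on the minus strand, 2 bases before one of its starts. In GENCODE release 44, the centre of the second LAMP1 window, the second GAA window and the CTSA and CLN3 windows lies within an exon of that gene (for CLN3 also of the readthrough gene ENSG00000261832), the second MCOLN1 window runs into the first bases of the gene, and the remaining windows lie upstream of the gene.

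The differences of the 6 genes with the motif ran from −0.22 for CTSA, the protective protein that stabilizes beta-galactosidase and neuraminidase, to 0.32 for CLN3, with ATP6V0D1 at −0.14, LAMP1 at 0.03, GAA at 0.05 and MCOLN1 at 0.13, and a median of 0.04. The 27 tested genes whose searched promoters lacked it ran from −1.22 to 0.69, with a median of −0.13, and included FUCA1, IDS and SMPD1. These ranges were not tested against each other. With the shorter TCACGTG on either strand, which 7.47% of the tested genes held, ARSB, CTSD and NEU1 were added, and the range of the genes with the motif widened to −0.76, the value of ARSB, at its lower end.

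Finally, 70 other genes of the lysosome were described in the same way, of which 60 reached the base mean of 50 in both experiments. None of the 60 was past 2-fold in either direction, 6 were past 1.5-fold lower and 2 were past it higher, against the 3.69%, 10.1% and 8.37% of all genes given above, and their median difference was −0.06. The 16 other hydrolases had a median of −0.12, and HYAL2, a hyaluronidase, was the highest at 0.53. The 13 other membrane and export genes had a median of −0.00, between SLC17A5, the sialic acid exporter, at −0.55 and GRN, the granulin precursor, at 0.41. The 13 other proton pump subunits had a median of −0.05 and ran from ATP6V1C1 at −0.35 to ATP6V0C at 0.57.

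The 6 genes that sort enzymes to the lysosome had a median of −0.28. IGF2R, the large mannose 6-phosphate receptor, was the lowest at −0.90, with base means of 14108 and 7200, and GNPTG, a subunit of the enzyme that makes the mannose 6-phosphate tag, the highest at 0.87, with base means of 867 and 1514. Among the 12 tested regulators, with a median of −0.04, TFE3 was the lowest at −0.30 and LAMTOR4, a subunit of the complex that docks mTORC1 on the lysosome, the highest at 0.60. TFE3 had a level of 602 per kilobase in the knockdown experiment and 467 in the inhibitor experiment, against the 33.9 and 24.2 of TFEB, while MITF stood at 2.86 and 3.07 and TFEC at 0.24 and a listing of 0.

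The promyelocyte markers lay on the other side. Of the 7 markers, 6 were tested, none lay below 0, and their median was 0.82, from 0.00 for CD33, a surface receptor, to 1.40 for AZU1, an azurophil granule protein with base means of 723 and 1814. Their part in the differences of the lysosomal genes was not tested.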

How the data were processed

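RNA of NB4 cells was measured in 10 libraries, 2 per group, made with a TruSeq v2 kit. The submitters' processing notes list bcl2fastq 2, FastQC 0.11.5, STAR 2.7, RSEM and DESeq2, with the build hg38. The deposited signal values are base means, normalised and pooled by the authors over the libraries of an experiment. The knockdown table holds a base mean for each hairpin, and these differed in 0 rows. The other columns, the authors' fold changes, standard errors, statistics and p-values of hairpin against EV and of MC2580 against DMSO, were not used. The most frequent non-zero base mean was shared by 6 genes of 33416 in the knockdown table and by 11 of 32286 in the inhibitor table. So few shared values do not match whole counts divided by a single factor per library. The form of the normalisation is therefore unknown, and no reads per library could be recovered. No test was run, and a gene is called past 2-fold or 1.5-fold by size alone.

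Differences were computed with pandas 2.3.3 over protein-coding genes whose base mean reached 50 in each experiment, and the calculation was tested on simulated data. Exon lengths were the union of GENCODE release 44 exons, and 60306 of 60603 identifiers matched. Members and lists were chosen with earlier results of these data known. Genes named were the highest and lowest per length of each role, those past 2-fold, the 5 at each end of the difference, TFEB, those with TCACGTGA and the extremes of each other list, of which 1 is not reported here; further genes were named after their values were seen.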

Additional observations from a re-analysis of the deposited data

How the results depend on the processing

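No paired analysis was possible because the base means are pooled over the libraries of an experiment, and for the same reason leaving out a replicate was not run. The median difference of the lysosomal genes, −0.14, was −0.21 without centring, −0.23 with each base mean divided by the sum over all genes, −0.14 with a minimum base mean of 10, −0.15 with no filter and 1 added to each base mean, and −0.17 with all gene types. ARSA, GAA, LAMP1 and NEU1 changed sign without centring and after division by the sum, and LAMP1 did so with all gene types. CTSS joined the 3 genes past 2-fold under those same 3 settings, making 4. With no filter and 1 added, 5 genes were past 2-fold, among them LGMN and ACP5, both near 0, against 9.73% of all genes, and at 1.5-fold 6 were, against 18.5% of all genes. The share held by the 47 genes was 0.415% and 0.354% of protein-coding genes only, and 0.522% and 0.459% without the 100 highest genes. Of the 10 highest genes per length, 9 stayed with the longest transcript, 8 with no length and 7 with the canonical transcript, an alternative chosen after seeing the data, in either experiment, and with the last CD63 passed PSAP in the inhibitor experiment. With CACGTG, 11 of the 34 genes held the motif, against 13.2% of the tested genes with a promoter. With TCACGTG, 9 did, against 7.47% of the tested genes. Since depth per library is unknown, SGSH, ACP5 and LGMN, whose base means were below 50, were given as levels only.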
